A study of Mus musculus with 6 samples.

Results

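The sorting nexins are a family of proteins that carry a PX domain, a module that binds phosphoinositide lipids of endosomal membranes, and many of them also hold a BAR domain that senses or bends the membrane into tubules. They select receptors and transporters in endosomes and send them to the trans-Golgi network, to the cell surface or to lysosomes, often together with the cargo-binding complex retromer. In macrophages and osteoclasts, cells with heavy endocytic traffic, members of the family act in the uptake and recycling of surface receptors and in the acidification of vacuoles. Snx8, a PX-BAR protein of early endosomes, takes part in transport from endosomes to the trans-Golgi network, and in human and mouse cells it has also been tied to innate signalling through the kinase IKK-beta and the DNA-sensing adaptor Sting1.

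The genes described here are Snx8 and 9 further sorting nexins, 10 of the 14574 genes listed in any library, found by matching Entrez gene identifiers to mouse symbols. Snx8 was chosen by its FPKM in these libraries, which was higher in Cd28 KO macrophages, and the other 9 by their family membership, with results of these data known, so the difference of Snx8 between the genotypes is given as a description with no test. The question was whether the other sorting nexins shared that difference. All 10 averaged at least 1 FPKM across the libraries and were tested, as were 19 further genes of the family, so that 29 sorting nexins were measured in all. FPKM counts fragments relative to transcript length and to the mapped total of a library, so levels of different genes can be set side by side.

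RNA was sequenced from bone marrow-derived macrophages, which are cells flushed from mouse femurs and differentiated in culture with the growth factor M-CSF. One group came from Cd28 KO mice and the other from wild-type mice (WT, C57BL/6J), aged 6 to 10 weeks, with 3 libraries in each group. Culture lasted 7 days for both groups, with 10% serum, fresh human M-CSF (25 ng/ml) every 2 days and no other treatment. The sources used here do not give the Cd28 KO allele, its strain background, the sex of the mice or whether each library came from a separate animal, and p-values reflect only the spread among these libraries.

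Cd28, the costimulatory receptor that the KO allele targets, stood at 25.70, 24.15 and 26.90 FPKM in the Cd28 KO libraries and at 38.23, 30.06 and 51.08 in WT, lower but not at 0. Gene-level values do not show whether the deleted part was read. Each library listed 12768 to 13327 genes, and read numbers are not known. All 8 macrophage markers were listed in all 6 libraries and summed to 14779 to 16869 FPKM in the KO group and 14104 to 14783 in WT. Markers of the other 8 cell types were low. T cell markers summed to 3.88 to 6.91 FPKM in the KO group and 4.40 to 7.20 in WT, most of it Cd4, while the T cell receptor components Cd3e and Cd3g were at 0 in every library but WT replicate 3. Replicate 3 of each genotype stood apart on principal component 1, which held 73.8% of the variance and placed them at 34.8 and 36.1, against -18.2 to -17.4 for the other 4. They were also the only libraries in which the Y-linked genes Eif2s3y and Ddx3y were listed. For some genes and lists the values in replicates 1 and 2 alone are therefore also given.

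Snx8 (Entrez 231834, chr5:140340293-140389308, GRCm38, minus strand) lies on another chromosome than Cd28, which is on chromosome 1. Its promoter is shown because the transcript of this gene is the one that differed. The sequence, from RefSeq for GRCm38.p6, covers chr5:140389259-140389558 on the minus strand, from 250 bases before the annotated start to 50 bases after it, and reads 5′ to 3′ with 2 matches to the searched motifs in capitals.
Snx8 promoter: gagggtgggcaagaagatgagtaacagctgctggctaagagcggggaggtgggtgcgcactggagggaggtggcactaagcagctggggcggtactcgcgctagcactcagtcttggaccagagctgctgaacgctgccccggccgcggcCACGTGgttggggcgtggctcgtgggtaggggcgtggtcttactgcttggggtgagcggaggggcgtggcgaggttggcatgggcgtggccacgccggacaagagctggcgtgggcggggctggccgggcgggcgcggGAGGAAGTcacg
The first run of capitals is the E-box palindrome CACGTG, which begins at base -100 relative to the start and is the core recognised by MITF and TFE transcription factors, among others. The second is GAGGAAGT, a site of the type bound by the macrophage ETS factor PU.1, whose first base is base 39 counted from the RefSeq start. In GENCODE the gene starts at chr5:140389262 on the minus strand, and this match lies before that start. Each of 4 motifs was searched on both strands in all 32851 promoter windows of the same length. CACGTG, which is its own reverse complement, occurred in 7.15% of them and GAGGAAGT in 3.2%. GAAANNGAA, a core of the interferon response element, occurred in 8.56% and the AP-1 site TGANTCA in 7.81%, and neither of these is in the Snx8 window. The capitals do not overlap each other. Promoters were held for 7 of the 10 members. Among those, CACGTG was in Snx5, Snx8 and Snx18, and GAGGAAGT in Snx8 alone. Snx10 held both GAAANNGAA and TGANTCA. The window of Snx8 is 69.3% G and C, against a median of 52.7% over all windows. A match to these letters is a description of the sequence and not evidence of binding.

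Snx8 stood at 98.58, 105.18 and 103.35 FPKM in the 3 Cd28 KO libraries and at 23.47, 22.05 and 21.40 in WT. The groups lay far apart, with little spread within either one and with replicate 3 close to the others in both. The means were 102 ± 3.41 FPKM in the KO group and 22.3 ± 1.06 in WT (SD, n = 3 each), a ratio of 4.59. On the log2(FPKM + 1) scale, which slightly understates the change of low genes, the difference was 2.15 ± 0.09 (SE). Taken by replicate number, the log2 differences were 2.02, 2.20 and 2.22. In bulk RNA, more cells that express a gene and more of its RNA per cell cannot be told apart.

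By group mean, Snx8 was the eighth of the 10 members in WT macrophages and the fourth in Cd28 KO. In WT replicate 3 Snx6 (21.58 FPKM) and Snx18 (24.68) both lay above Snx8 (21.40), so its place among the low members varied between the WT libraries. It made up 2.75% to 2.97% of the members' summed FPKM in the WT libraries and 10.4% to 11.7% in the Cd28 KO libraries. Among all listed genes, 24.8% to 25.9% lay above Snx8 in the WT libraries and 5.49% to 6.13% in the Cd28 KO libraries. Without Snx8, the members' sum was 741.35 to 766.40 FPKM in WT and 794.95 to 845.54 in the KO group. These sums were not brought to a common library total, and the totals differed, at 510936.54 to 537817.64 in WT and 519092.87 to 576312.52 in the KO group. With each library brought to the same sum (TPM scale), the median log2 difference of the other 9 was -0.02, beside -0.06 over all tested genes.

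The order of the members in WT ran from Snx5 at 247 ± 6.90 FPKM, through Snx3 at 190.1 ± 6.07, Snx2 at 108 ± 13.2 and Snx1 at 80.1 ± 8.35, to a lower group (SD, n = 3 each). In that lower group Snx9 stood at 37.9 ± 10.5 FPKM, Snx10 at 33.4 ± 1.90, Snx6 at 26.0 ± 3.86, Snx8 at 22.3 ± 1.06, Snx27 at 16.2 ± 4.44 and Snx18 at 15.6 ± 7.88. The ranges of Snx9 and Snx10 overlapped, as did those of Snx6 and Snx8 and those of Snx27 and Snx18, and the range of Snx18 also overlapped those of Snx6 and Snx8, so the order among these genes is not set by the data. The order in Cd28 KO was the same apart from the place of Snx8 and the exchange of Snx9 and Snx10. There Snx8 lay between Snx2, at 131 ± 11.6 FPKM, and Snx1, at 91.6 ± 9.39, and its range touched neither.

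**Figure D1:**
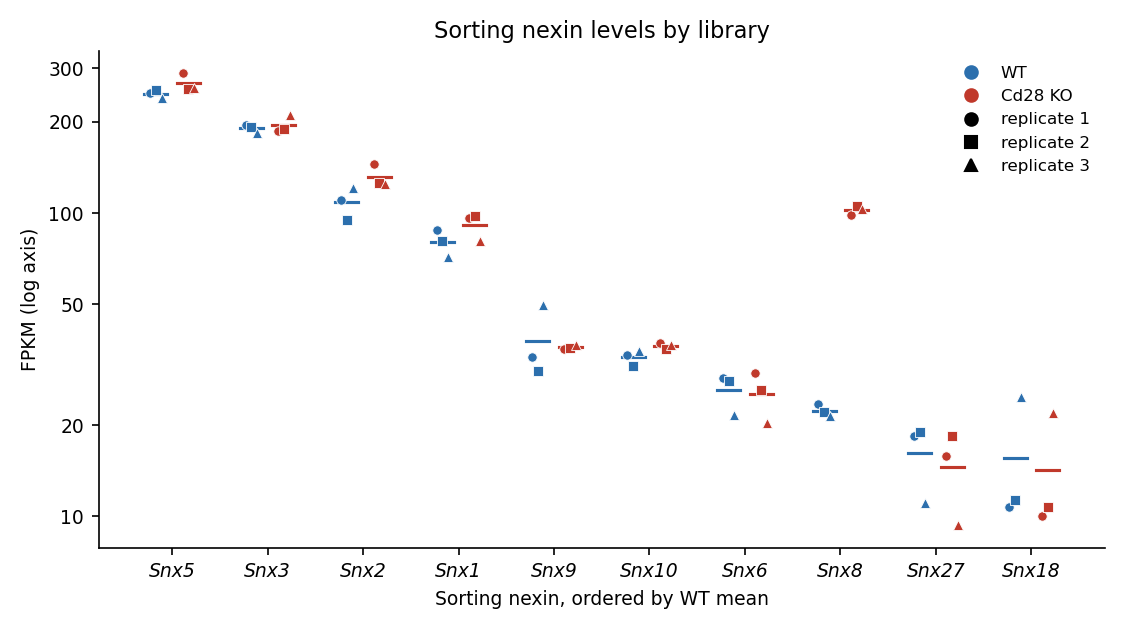
FPKM of the 10 members in each of the 6 libraries on a log axis, with WT in blue, Cd28 KO in red, a symbol for each replicate number and a bar at each group mean. Snx8 is at 21.40 to 23.47 FPKM in WT and 98.58 to 105.18 in Cd28 KO, while the other members lie at similar heights in both groups, and Snx18 and Snx27 separate by replicate 3 in both.

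None of the other 9 members passed the test. limma, a linear model fitted to all 10172 tested genes, called 0 of the 9 in either direction at a Benjamini-Hochberg adjusted p below 0.05, against 0.0197% of all tested genes, and their adjusted p was 0.9995 in each case. With the replicate number as a block, it again called 0 of 9, against 0.177% of all genes, with adjusted p values from 0.55 for Snx2 to 0.97 for Snx9. The share without the block stands for 2 genes, the protease gene Ctse and Snx8 itself. Beside shares this small, a count of 0 called says little alone, here and for the gene groups below. At an unadjusted p below 0.05 there were 0 of 9 without the block, where 2.49% of all genes were, and 1 with it, Snx2, where 7.89% of all genes were. The log2 differences of the 9 ran from -0.15 to 0.28, with a median of 0.04, beside a median of 0.00 over all tested genes. Their 95% intervals depended on the fit. Without the block the highest upper bound was 0.80, a 1.74-fold increase, for Snx18, whose spread was wide, and for the other 8 it lay between 0.25 and 0.57. With the block, which assumes pairing by number, the interval of Snx18 was -0.34 to 0.12. The highest upper bound was then 0.52, for Snx2, whose interval of 0.04 to 0.52 leaves out 0. In replicates 1 and 2 alone the median of the 9 was 0.12, beside 0.03 over all tested genes.

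Snx1, Snx2, Snx5 and Snx6 belong to the BAR-domain nexins that pair with each other, Snx1 or Snx2 with Snx5 or Snx6, to return the mannose 6-phosphate receptor from endosomes to the trans-Golgi network. Snx1 stood at 96.36, 97.74 and 80.83 FPKM in the KO group and 88.06, 80.90 and 71.42 in WT. Its groups overlapped, and the log2 difference was 0.19 ± 0.12 (SE). With single libraries left out it ran from 0.11, without WT replicate 3, to 0.28, without Cd28 KO replicate 3. In replicates 1 and 2 alone it was 0.20, and by replicate number 0.13, 0.27 and 0.18. Snx2, a close relative of Snx1, stood at 144.90, 125.34 and 124.23 FPKM in the KO group and 110.01, 94.54 and 120.74 in WT. Every Cd28 KO value of Snx2 lay above every WT value, by a small margin between the lowest Cd28 KO and the highest WT library. Its log2 difference was 0.28 ± 0.12 (SE), the highest among the 9, with a 95% interval of -0.01 to 0.57 and a limma adjusted p of 0.9995. With the replicate block the interval was 0.04 to 0.52 and the limma adjusted p 0.55. By replicate number the log2 differences of Snx2 were 0.39, 0.40 and 0.04, so replicate 3 showed almost none of it. The difference was 0.40 in replicates 1 and 2 alone.

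Snx5 was the most abundant member, at 288.71, 256.02 and 259.20 FPKM in the KO group and 248.19, 253.77 and 240.04 in WT. The groups did not overlap, but Cd28 KO replicate 2 and WT replicate 2 differed by little, and the log2 difference was 0.11 ± 0.09 (SE). Its partner of the same type, Snx6, stood at 29.80, 26.15 and 20.27 FPKM against 28.61, 27.84 and 21.58. In both genotypes Snx6 was lowest in replicate 3, and its log2 difference was -0.04 ± 0.18 (SE).

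Snx3 and Snx27 are cargo adaptors that work with retromer. Snx3, which has a PX domain and little else and helps to recycle the Wnt carrier Wntless and the transferrin receptor, stood at 186.98, 189.16 and 209.67 FPKM in the KO group and 194.72, 192.40 and 183.24 in WT. The ranges overlapped, with the highest and the lowest value both in replicate 3, and the log2 difference was 0.04 ± 0.09 (SE, 95% interval -0.17 to 0.25). Snx27, a PDZ and FERM domain protein that returns receptors and transporters to the cell surface, stood at 15.85, 18.47 and 9.35 FPKM against 18.45, 18.98 and 11.03. Replicate 3 was the lowest library in each group for Snx27, and the log2 difference between the genotypes was -0.15 ± 0.29 (SE).

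Snx9 and Snx18 carry an SH3 domain beside PX and BAR domains and act with dynamin in endocytosis. Snx9 stood at 35.70, 35.81 and 36.60 FPKM in the KO group and 33.62, 30.25 and 49.92 in WT, where replicate 3 alone was high. Its log2 difference was -0.04 ± 0.18 (SE), and it was 0.16 when both replicate 3 libraries were left out. Snx18 stood at 10.00, 10.73 and 21.93 FPKM against 10.74, 11.36 and 24.68. Both replicate 3 libraries were about as far above the rest in one genotype as in the other, and the log2 difference between genotypes was -0.11 ± 0.39 (SE). With the replicate number as a block the standard error of Snx18 was 0.10 and the adjusted p from limma 0.87.

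Snx10, a PX-only protein needed for bone resorption by osteoclasts, stood at 37.24, 35.53 and 36.79 FPKM in the KO group and 34.00, 31.31 and 34.98 in WT. All 3 Cd28 KO values lay just above the highest WT value, and the log2 difference was 0.13 ± 0.10 (SE, 95% interval -0.11 to 0.36).

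For Snx2, Snx5 and Snx10 the lowest Cd28 KO library thus lay above the highest WT library, which made 3 of the 9, and 0 of the 9 showed the reverse. Groups without overlap were found in 3.84% of all tested genes with Cd28 KO higher, and in 2.87% with it lower. The count depended on the scale. On the TPM scale, where each library is brought to the same sum, it was 0 of 9, with 2.35% of all genes higher. With quantile normalization it was also 0 of 9, where 3.91% of all genes were higher. After centring each library on its median it was 1, Snx1, where 3.64% of all genes were higher. In replicates 1 and 2 alone it was 5 of 9, where 25.8% of all genes were higher without overlap. In that setting 2 of the 9 were lower without overlap, where 18.3% of all genes were. The deposited FPKM summed to 519092.87 to 576312.52 in the Cd28 KO libraries and 510936.54 to 537817.64 in WT.

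**Figure D2:**
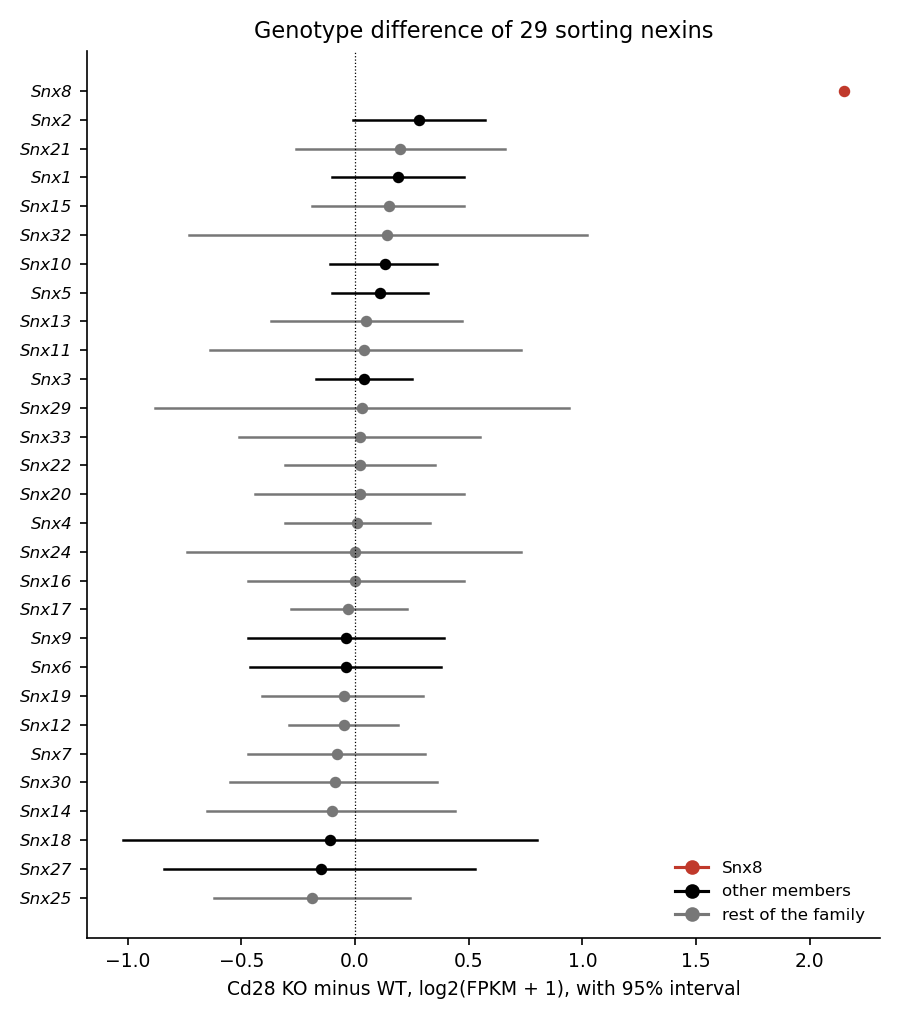
Difference between Cd28 KO and WT in log2(FPKM + 1) for the 29 measured sorting nexins, as points, with 95% intervals from limma for all but Snx8, which is in red with no interval, the other 9 members in black and the rest of the family in grey. Snx8, chosen for this difference, is at 2.15, and the other 28 lie between -0.19 and 0.28. Their intervals, from the fit without the replicate block, include 0.

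Of the 19 further sorting nexins, limma called 0 in either direction with or without the block, where 0.0197% and 0.177% of all tested genes were called. At an unadjusted p below 0.05 there were 0 of 19 in either fit, where 2.49% and 7.89% of all tested genes were. Their log2 differences ran from -0.19 for Snx25 to 0.20 for Snx21, with 11 positive and 8 negative and a median of 0.01, and 0 of 19 were without overlap. Single libraries moved both ends of that range. With Cd28 KO replicate 3 left out, Snx25 was -0.09 and Snx21 0.37. With WT replicate 3 left out, Snx25 was -0.33 and Snx21 0.08, and leaving out WT replicate 2 gave -0.09 for Snx25. Each such omission gives the groups unequal shares of replicate 3, so these values also hold its distance from the other libraries. With both replicate 3 libraries left out, Snx25 was -0.22 and Snx21 0.25. Without the block, the widest interval upward was that of Snx32, a relative of Snx6, with an upper bound of 1.02 (2.02-fold). With the block its upper bound was 0.47. Snx17, which recycles the receptor Lrp1, was among the most abundant of these genes, at 53.4 ± 2.20 FPKM in the KO group and 54.6 ± 5.43 in WT (SD, n = 3 each). Snx20, which binds the selectin ligand PSGL-1 of leukocytes, stood at 50.1 ± 4.94 against 50.4 ± 12.5 FPKM. Snx12, a close relative of Snx3, stood at 35.5 ± 2.25 against 36.8 ± 1.66 FPKM.

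The BAR-domain nexins that act in recycling and autophagy did not pass the test. Snx4 stood at 32.3 ± 2.58 FPKM in the KO group and 32.2 ± 4.83 in WT, Snx7 at 7.99 ± 1.59 and 8.41 ± 0.681, and Snx30 at 11.6 ± 0.852 and 12.7 ± 3.49. Snx33, the third SH3 member beside Snx9 and Snx18, stood at 5.55 ± 1.24 and 5.49 ± 1.36 FPKM. Snx13, Snx14 and Snx25, nexins with an RGS-related domain, had log2 differences of 0.05, -0.10 and -0.19, and Snx19 had -0.05. Their 95% intervals all include 0. Snx11, Snx15, Snx16, Snx22, Snx24 and Snx29 had log2 differences of 0.04, 0.15, 0.00, 0.02, 0.00 and 0.03. In replicates 1 and 2 alone Snx13 was 0.29, Snx15 0.01, Snx16 0.17 and Snx29 0.48. Snx29 was the most uneven of them, at 5.82, 7.98 and 6.72 FPKM in the KO group and 5.88, 3.56 and 13.17 in WT.

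Replicate 3 is set against the other libraries of the same genotype for each family gene, a comparison that the choice of Snx8 did not use. It is given as values without a test, since no label says what the replicate numbers stand for. Snx18 was 2.12 times the mean of replicates 1 and 2 in the Cd28 KO group and 2.23 times in WT. Snx24 was 1.65 and 1.99 times that mean, and Snx27 was 0.545 and 0.589 times. Snx11 (0.58 and 0.541) and Snx32 (0.593 and 0.373) were also lower in both. Of the 29 family genes, 2 were over 0.5 log2 units above the mean of replicates 1 and 2 in both groups and 3 were over 0.5 below it, where 5.15% and 8.86% of all tested genes were, so the shares in the family were near those of all genes. Snx8 was 1.01 times that mean in the KO group and 0.940 times in WT. Snx9 and Snx29 stood higher in WT replicate 3 (1.56 and 2.79 times) and close to the mean in Cd28 KO replicate 3 (1.02 and 0.974 times).

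**Figure D3:**
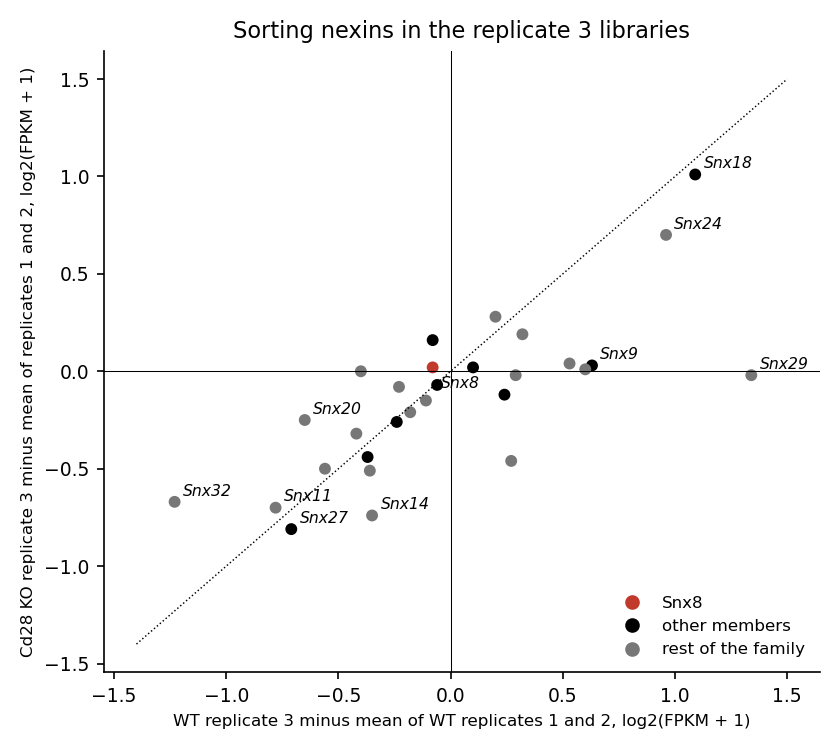
Each point is 1 of 29 sorting nexins, with the log2(FPKM + 1) of replicate 3 minus the mean of replicates 1 and 2 in WT on the horizontal axis and in Cd28 KO on the vertical axis, and a dotted line where both are equal. Snx18 and Snx24 are at the upper right, Snx27, Snx11 and Snx32 at the lower left, and Snx8 lies at -0.08 and 0.02.

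The position of Snx8 was examined next. In GENCODE, the longest gene models of Snx8 have 11 exons, no annotated gene overlaps it, and 0 of 3269 stretches of 50 bases from its transcripts occur in a transcript of another gene on either strand, so that its reads are separable from those of other annotated genes at that length. Snx1, Snx3, Snx9, Snx18 and Snx27 also shared 0% of such stretches. In Snx2, 9.88% of the stretches also occur in another gene, mainly Gm12543, and in Snx5 3.98% do, mainly in Mgme1, which overlaps it on the opposite strand. In Snx6 and Snx10 the shares were 1.03% and 0.16%. Mgme1 stood at 4.92 ± 1.93 FPKM in the KO group and 4.79 ± 1.85 in WT (SD, n = 3 each). The sources used here give neither the strandedness of the libraries nor their read length.

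Of the 17 annotated genes within 250 kb of Snx8, 7 were listed and all 7 were tested, with 0 called by limma in either fit, against 0.0197% of all tested genes without the block and 0.177% with it. At an unadjusted p below 0.05 there were also 0 of 7 in either fit, against 2.49% and 7.89% of all tested genes. Nudt1, which cleans oxidised nucleotides from the nucleotide pool and lies 2.2 kb from Snx8, stood at 6.50 ± 1.04 FPKM in the KO group and 6.03 ± 0.836 in WT (SD, n = 3 each). Mrm2, a mitochondrial rRNA methyltransferase 8.4 kb away, stood at 3.84, 3.87 and 3.96 FPKM in the KO group and 3.41, 3.28 and 3.20 in WT. Its groups did not overlap, at a log2 difference of 0.19 ± 0.13 (SE) and a limma adjusted p of 0.9995. Of all tested genes, 3.84% were likewise higher in Cd28 KO without overlap. On the other side, Eif3b, a subunit of translation initiation factor eIF3 at 30.0 kb, stood at 72.7 ± 3.66 against 81.7 ± 6.30 FPKM. Mad1l1, Chst12, Lfng and Ttyh3 had log2 differences of -0.14, -0.03, -0.10 and -0.19. Across the 30 tested genes within 2 Mb other than Snx8, log2 differences ran from -0.36 to 0.33 with a median of -0.01.

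**Figure D4:**
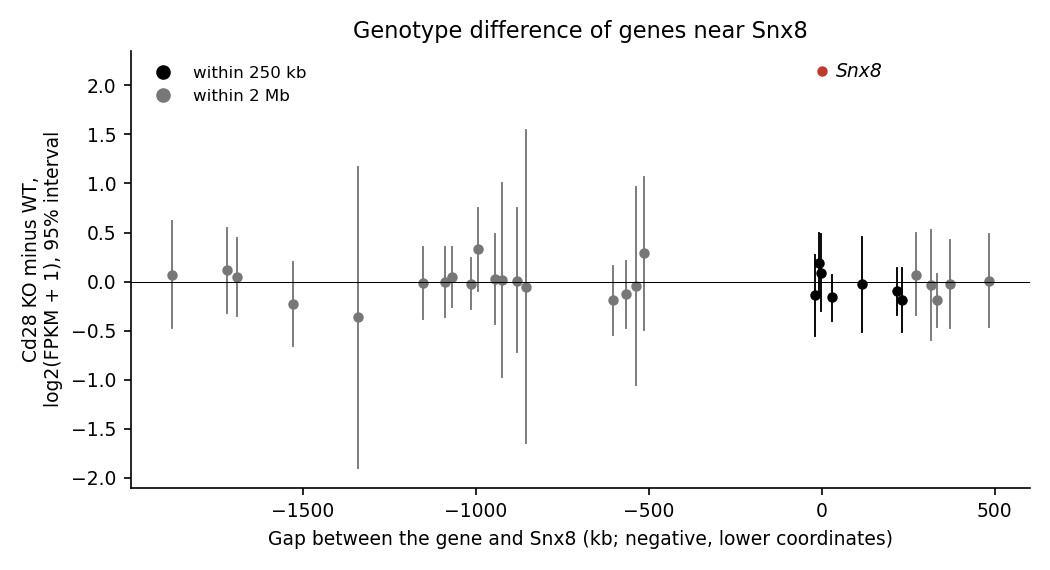
Difference between Cd28 KO and WT in log2(FPKM + 1), with 95% intervals from limma, for the 30 tested genes within 2 Mb of Snx8, and for Snx8 as a point with no interval, against the gap to Snx8 in kb. Snx8 is at 2.15, and its 30 neighbours lie between -0.36 and 0.33.

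The partners of sorting nexins in endosomal sorting were read from the same fit, from lists chosen for their function. limma called 0 genes of any of these 6 lists, against 0.0197% of all tested genes without the replicate block and 0.177% with it. At an unadjusted p below 0.05 stood Commd3 without the block, where 2.49% of all tested genes were, and Commd3, Commd4, Washc3 and Lrp1 with it, where 7.89% were. These shares are near those of all genes. Retromer, the complex of Vps35, Vps29 and Vps26a or Vps26b that many sorting nexins work with, had 3 of 4 members positive and a median log2 difference of 0.14. Vps35 stood at 76.34, 70.87 and 78.01 FPKM in the KO group and 64.47, 55.79 and 79.57 in WT. Vps26a stood at 67.1 ± 3.55 FPKM and 61.5 ± 6.17, Vps29 at 36.4 ± 4.80 and 33.0 ± 5.27, and Vps26b at 9.09 ± 2.34 and 9.73 ± 1.19 (SD, n = 3 each). The ranges overlapped for all 4.

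The retriever and CCC complexes, which recycle receptors bound by Snx17, had 12 of 14 members positive, where 4998 of all 10172 tested genes were. Their median log2 difference was 0.14, beside 0.00 over all tested genes. It was 0.09 on the TPM scale, beside -0.06 over all tested genes, and 0.08 in replicates 1 and 2 alone, beside 0.03. Commd3 stood at 87.3 ± 9.30 FPKM in the KO group against 70.0 ± 8.49 in WT, where limma gave adjusted p = 0.9995, or 0.41 once the replicate block was added. Commd4 stood at 55.0 ± 4.91 against 46.1 ± 4.15 FPKM, Commd8 at 18.8 ± 1.85 against 16.5 ± 1.22 and Commd6 at 35.9 ± 7.96 against 30.4 ± 0.906 (SD, n = 3 each), and the groups of Commd4 and Commd8 did not overlap, 2 of 14, where 3.84% of all tested genes were higher without overlap.

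The WASH complex, which builds actin on endosomes, had 2 of 5 members positive and a median of -0.02. The median was -0.08 on the TPM scale, beside -0.06 over all tested genes, and 0.12 in replicates 1 and 2 alone, beside 0.03. Washc3 stood at 34.5 ± 1.49 FPKM in the KO group and 29.4 ± 2.04 in WT without overlap, Washc5 at 35.1 ± 4.11 and 36.7 ± 5.09, Washc1 at 17.8 ± 2.42 and 18.5 ± 3.97, and Washc4 at 13.5 ± 3.41 and 12.8 ± 0.431 (SD, n = 3 each). Washc3 was the only 1 of the 5 higher without overlap, where 3.84% of all tested genes were.

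Among 12 cargo and transport proteins of endosomes, 10 differences were negative, where 5174 of all 10172 tested genes were. The median log2 difference was -0.13, beside 0.00 over all tested genes. It was -0.19 on the TPM scale, beside -0.06 over all tested genes. In replicates 1 and 2 alone it was -0.09, beside 0.03. Lrp1, a large endocytic receptor and cargo of Snx17, stood at 85.82, 112.81 and 71.96 FPKM in the KO group and 110.24, 113.14 and 107.50 in WT. Cd28 KO replicate 2 lay among the WT values, and the log2 difference was -0.31 ± 0.16 (SE). Igf2r, the cation-independent mannose 6-phosphate receptor carried by Snx1, Snx2, Snx5 and Snx6, stood at 20.29, 25.41 and 14.63 FPKM against 24.28, 24.46 and 26.68, with overlap and a log2 difference of -0.34 ± 0.19 (SE). Sort1, the sorting receptor sortilin, stood at 6.68 ± 1.14 against 8.01 ± 0.331 FPKM, and M6pr, the smaller mannose 6-phosphate receptor, at 137 ± 16.2 against 126 ± 18.9 (SD, n = 3 each).

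The genes linked to Snx8 in innate signalling had log2 differences from -0.03 to 0.08 over 6 genes, with a median of 0.01. Their 95% intervals from limma without the block reached from -0.93 (0.523-fold) to 0.87 (1.83-fold), so larger changes of single genes in the list are not excluded by that fit. Sting1 stood at 40.8 ± 4.69 FPKM in the KO group and 39.0 ± 4.55 in WT, Cgas, the enzyme that activates it on binding DNA, at 5.06 ± 1.53 and 4.80 ± 0.741, Jak1 at 38.9 ± 3.34 and 40.1 ± 8.16, and Pik3c3, the kinase that makes the endosomal lipid bound by many PX domains, at 13.4 ± 2.87 and 12.6 ± 3.05. The 10 enzymes of endosomal phosphoinositides had a median log2 difference of -0.07, with 3 positive and 7 negative, and 0.03 in replicates 1 and 2 alone. Becn1, a subunit of the Pik3c3 complex, stood at 52.71, 52.48 and 48.96 FPKM against 44.30, 43.06 and 46.56, without overlap, at a log2 difference of 0.20 ± 0.09 (SE) and a limma adjusted p of 0.9995. Becn1 was the only 1 of the 10 higher without overlap, where 3.84% of all tested genes were. Mtm1 stood at 5.57 ± 0.882 against 6.54 ± 0.417 FPKM, Pikfyve at 5.65 ± 1.62 against 6.33 ± 0.407 and Inpp5d at 62.6 ± 8.97 against 67.1 ± 6.92 (SD, n = 3 each).

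The genes whose levels followed Snx8 most closely were found by Pearson's r of log2(FPKM + 1) over the 6 libraries, which fall into 2 genotypes, so r mostly restates the genotype difference and is given as a description. The 5 highest were Ctse, an aspartic protease of the endosomal system (r = 0.994), the selenoprotein gene Selenoh (0.982), the interferon-induced gene Xaf1 (0.982), the neighbouring gene Mrm2 (0.979) and the metalloreductase gene Steap3 (0.977). The closest sorting nexin was Snx10, at r = 0.77 and place 283 of 10171, followed by Snx2 at 0.73 and place 397. The size of the difference varied widely among these genes. Ctse stood at 108.45, 129.14 and 143.25 FPKM in the KO group against 3.66, 3.35 and 5.52 in WT, Selenoh at 23.6 ± 1.31 against 17.1 ± 0.457, and Steap3 at 78.7 ± 8.26 against 43.5 ± 1.80 (SD, n = 3 each).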

How the data were processed

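Gene expression was measured by RNA sequencing in 6 libraries, grouped by their titles. The submitters' processing notes name Bowtie, RSEM and GRCm38, without versions of the tools. The deposited values are FPKM, 1 per gene and library, as the authors gave them. A gene not listed in a library was taken as 0. Of 14574 Entrez identifiers 14551 matched RefSeq. FPKM does not carry read numbers, so depth is unknown. No pair of libraries shared more than 0.46% of values of at least 1 FPKM.

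The 10172 genes that averaged at least 1 FPKM were tested with limma 3.58.1 in R 4.3.3 (empirical Bayes with trend) on log2(FPKM + 1), two-sided, with Benjamini-Hochberg adjustment over all of them. The fit was also run on simulated data, in which replicate effects were drawn independently for each gene and replicate. That setting lacks the distance of replicate 3 seen here, so it is no check of the fit under it. Python 3.11.15, pandas 2.3.3, NumPy 2.4.6 and Matplotlib 3.10.9 were also used. The members and lists were chosen with earlier results of these data known. The genes named are the members, the other sorting nexins, up to 4 genes of smallest p from each list, the 5 genes most like Snx8, and listed genes within 250 kb of it.

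Deviations from the group means were correlated across genes between the genotypes. Same-numbered libraries gave 0.752, 0.505 and 0.783 for replicates 1, 2 and 3. Crossing the numbers 1 and 2 gave similar values, 0.663 for KO 1 beside WT 2 and 0.535 for KO 2 beside WT 1. The values set replicate 3 apart. They cannot decide how replicates 1 and 2 pair, because replicate 3 pulled each group mean away from both. Pairing by number is therefore an assumption with no label behind it. The results with the replicate block and the differences by replicate number rest on it. Alternatives were another pseudocount (0.1), other filters and scalings, the replicate block and leaving out libraries.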

Additional observations from a re-analysis of the deposited data

How the results depend on the processing

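The log2 difference of Snx8 stayed between 2.11 and 2.19 under all 14 alternatives, and 0 of the other 28 sorting nexins was called under any of them that tested it. Snx16 was not tested at the minimum mean of 5 FPKM. The lowest adjusted p among those was 0.17. limma called 2 genes in all, 5 without the filter, 18 with the replicate block (14 higher and 4 lower) and 71 in replicates 1 and 2 alone. The block changed no call of a sorting nexin. The members other than Snx8 that were higher without overlap numbered 3, then 0 on the TPM scale, 0 with quantile normalization, 1 with median centring and 5 in replicates 1 and 2 alone, settings chosen after seeing the data. The shares of all tested genes were 3.84%, 2.35%, 3.91%, 3.64% and 25.8% in that order. In replicates 1 and 2 alone 2 members were lower without overlap, where 18.3% of all tested genes were. The cause of these changes in the count was not tested. The lack of read numbers limits the precision that can be given for low genes.

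Differences near 0 changed sign with the setting, none of them called. The TPM scale moved the median over all tested genes from 0.00 to -0.06. On the TPM scale Snx3 was -0.02, Snx4, Snx16 -0.05, Snx11, Snx29 -0.01, Snx13 0.00, Snx20, Snx22 -0.04 and Snx33 -0.03. With quantile normalization Snx3 and Snx20 were -0.01 and Snx4 0.00, and with median centring Snx24 was 0.00. In replicates 1 and 2 alone Snx3 was -0.04, Snx9 0.16, Snx14 0.03, Snx19 0.05, Snx20 -0.12, Snx22 -0.01, Snx24 0.09, Snx30 0.10, Snx32 -0.04 and Snx33 0.00. Omission of 1 library gives the groups unequal shares of replicate 3, so the values that follow also hold its distance from the other libraries. Leaving out 1 library at a time moved Snx3 from -0.02 to 0.07, Snx4 from -0.09 to 0.12, Snx6 from -0.16 to 0.11, Snx9 from -0.18 to 0.17, Snx11 from -0.22 to 0.28, Snx12 from -0.09 to 0.00 and Snx13 from -0.05 to 0.20. It moved Snx14 from -0.23 to 0.14, Snx16 from -0.15 to 0.18, Snx17 from -0.10 to 0.04, Snx18 from -0.45 to 0.25, Snx19 from -0.13 to 0.04, Snx20 from -0.20 to 0.15 and Snx22 from -0.07 to 0.11. It moved Snx24 from -0.23 to 0.32, Snx27 from -0.39 to 0.12, Snx29 from -0.34 to 0.48, Snx30 from -0.20 to 0.11, Snx32 from -0.27 to 0.38 and Snx33 from -0.17 to 0.19. Without a change of sign it moved Snx1 from 0.11 to 0.28, Snx15 from 0.02 to 0.24, Snx21 from 0.08 to 0.37 and Snx25 from -0.33 to -0.09. Under all 14 alternatives Snx2 stayed between 0.19 and 0.4, Snx5 between 0.05 and 0.15 and Snx10 between 0.07 and 0.16. Snx7 also kept its sign, between -0.22 and -0.01.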
